A study of Mus musculus with 40 samples.

Results

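Trem2, its 2 membrane adaptors and 7 genes that carry or restrain their signal were followed in the mouse cortex. The 10 genes are Trem2, Tyrobp, Hcst, Syk, Plcg2, Inpp5d, Ptpn6, Vav1, Blnk and Btk. They were taken by name from 43346 genes in the deposited count table, and all 10 were among the 21253 genes that passed the filter on low counts. Bulk RNA sequencing had been done on 40 cortices, 1 library per mouse, in 4 groups of 10 mice with 5 females and 5 males each. The non-amyloid WT and non-amyloid Hom mice carried no amyloid transgene and were 6 months old. The amyloid WT and amyloid Hom mice were 8.5 months old and hemizygous for 5xFAD, a transgene set under the neuronal Thy1 promoter that leads to amyloid deposits. WT mice had the normal Trem2 gene and Hom mice were homozygous for the H157Y knock-in, which was made by CRISPR/Cas9 editing and kept as the offspring of 1 founder. Age and transgene differed together between the cohorts, so their parts in any cohort difference cannot be told apart.

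TREM2 is a receptor of microglia, the resident macrophages of the brain, and it binds lipids, lipoproteins and amyloid. It has no signalling motif of its own and pairs with TYROBP (also called DAP12), whose cytoplasmic tyrosine motif, the ITAM, recruits the kinase SYK once it is phosphorylated. SYK then acts on adaptors such as BLNK, on VAV1 and BTK, and on phospholipase PLCG2, while the phosphatases INPP5D (SHIP1) and PTPN6 (SHP-1) oppose the signal. HCST (DAP10) is a second adaptor, which recruits phosphoinositide 3-kinase in place of SYK.

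The edited codon lies in Trem2 (ENSMUSG00000023992), on the forward strand at chr17:48346401-48354147 of the mm10 mouse genome. The substitution C469T, counted from the first base of the coding sequence, falls at position 48351178 in exon 3 of 5 (48351101 to 48351191). It changes codon 157 from histidine to tyrosine. The stretch is shown because it holds the change by which Hom and WT mice were defined. Capitals mark the codon, and the transcript runs into exon 4 within the window.
WT: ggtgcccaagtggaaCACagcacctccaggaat
Hom: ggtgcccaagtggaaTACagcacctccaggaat
Gene counts do not separate these alleles, so the Hom label could not be checked in the count table.

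The other members are spread over the genome. Tyrobp (ENSMUSG00000030579, chr7:30413788-30417577, forward strand) and Hcst (ENSMUSG00000064109, chr7:30417717-30419854, reverse strand) are neighbours that point at each other, with 139 bases between their ends. Vav1 (ENSMUSG00000034116) shares chromosome 17 with Trem2 and starts 8.93 Mb from it, at chr17:57279100-57328031. The kinases are Syk (ENSMUSG00000021457, chr13:52583173-52648792) and Btk (ENSMUSG00000031264, chrX:134542336-134583570). Plcg2 (ENSMUSG00000034330) lies at chr8:117498291-117635140 and Blnk (ENSMUSG00000061132) at chr19:40928927-40994535. The phosphatase genes are Inpp5d (ENSMUSG00000026288, chr1:87620312-87720507) and Ptpn6 (ENSMUSG00000004266, chr6:124720707-124738714). Exons of the other 9 genes overlap no exon of another gene, and Ptpn6 shares 195 exonic bases with Gm20531 on the opposite strand.

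PU.1, the product of Spi1, is a transcription factor of myeloid cells that binds a purine-rich site around GAGGAA. Promoter windows of 250 bases before to 50 after the start (RefSeq, GRCm38.p6) were given for 9 of the 10 genes, all but Tyrobp. The longer form GAGGAAGT, on either strand, was in the windows of Inpp5d and Vav1, 2 of 9 genes, and in 3.20% of 32851 mouse promoter windows. The shorter GAGGAA, which the longer form contains, was in 5 of 9 genes and in 28.3% of all windows. Syk had 2 windows, so the 9 genes had 10. Of these 10 windows 5 held the shorter form and 2 the longer. Capitals mark the matches in the 100 bases before the start. In Trem2 the match is on the reverse strand and reads TTCCTC.
Inpp5d, chr1:87620212-87620311, forward strand: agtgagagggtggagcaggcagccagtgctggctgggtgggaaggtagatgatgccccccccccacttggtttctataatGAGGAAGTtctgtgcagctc
Vav1, chr17:57279000-57279099, forward strand: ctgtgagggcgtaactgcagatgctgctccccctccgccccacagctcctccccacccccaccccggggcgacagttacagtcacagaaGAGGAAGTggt
Trem2, chr17:48346301-48346400, forward strand: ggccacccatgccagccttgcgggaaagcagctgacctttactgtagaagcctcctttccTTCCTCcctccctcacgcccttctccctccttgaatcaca
The longer match began 20 bases before the start of Inpp5d and 11 bases before that of Vav1, and the Trem2 match 40 bases before its start. Motif letters are a description of these windows, and no binding was measured.

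Library totals ran from 41646271 to 105903846 counts, with a median of 77193387. Markers of cortical tissue were high in every library, with 8 neuron markers summing to between 4706 and 5978 CPM (gene counts scaled to the same library total in every mouse). All 10 microglia markers were tested. One library, amyloid Hom replicate 19 from a female, stood apart. In it 569 genes that lie mostly antisense to other genes took 0.617% of counts (95% Wilson interval 0.615 to 0.619, counting error only), against 0.0144% to 0.0191% in the other 39. Its total was also the lowest of the 40. The study's methods leave out 1 amyloid Hom female, for few counts on genes and for its strand check, without naming it. Replicate 19 may be that library, which could not be settled here. All 10 were kept, with the outcome without it given where it decides a result.

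Levels of different genes were compared as CPM per kilobase of exon. In non-amyloid WT cortex Tyrobp was the most abundant of the 10, at 24.4 ± 4.26 CPM per kilobase (SD, n = 10), above the next gene, Trem2, in 10 of 10 libraries with no overlap of ranges. Trem2 stood at 2.16 ± 0.43 over its summed exons, a length of 4946 bases that includes a retained intron, and at 9.83 ± 1.96 over its longest coding transcript of 1088 bases. Below them came Inpp5d (1.84 ± 0.15), Ptpn6 (1.22 ± 0.16), Blnk (1.08 ± 0.21), Vav1 (0.88 ± 0.13) and Plcg2 (0.81 ± 0.10), all per kilobase of summed exon. Syk (0.51 ± 0.12), Hcst (0.50 ± 0.21) and Btk (0.50 ± 0.08) closed the order on the same scale, and their ranges overlapped. Tyrobp was first and Trem2 second on both lengths in all 4 groups. With the coding transcript length Blnk moved up to the place after Trem2, at 3.09 ± 0.60 in non-amyloid WT mice, so the lower ranks depended on the length used. On the summed exons, Ptpn6 passed Inpp5d in amyloid WT mice, at 4.58 ± 1.44 against 3.804 ± 0.797 CPM per kilobase, and their ranges overlapped.

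Amyloid WT cortex held more RNA of all 10 genes than non-amyloid WT cortex, from 1.67 times for Syk to 6.84 times for Tyrobp in mean CPM. All 10 were called higher, meaning a Benjamini-Hochberg adjusted p under 0.05 with an absolute log2 fold change over 0.25 in edgeR's quasi-likelihood test, where 6.62% of genes were called higher. In 9 of the 10 genes, Syk being the exception, no amyloid WT mouse overlapped a non-amyloid WT mouse, a separation seen upward in 1.95% of genes. In bulk tissue more cells of a type and more RNA per cell cannot be told apart, and the 10 microglia markers, all called higher here, had a median log2 fold change of 1.18 against 1.41 for the 10 genes. Markers of other cells moved with them. Of 5 T and NK cell markers tested 4 were called higher and Cd4 lower, with a median of 2.60, and all but Cd4 were under 0.5 CPM in every library. Of 6 astrocyte markers 2 were called higher, Gfap (3.16, SE 0.20) and Aqp4 (0.64, SE 0.10), with a median of 0.20, and none of 8 monocyte and border macrophage markers was called. Their part in the difference was not tested.

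**Figure D1:**
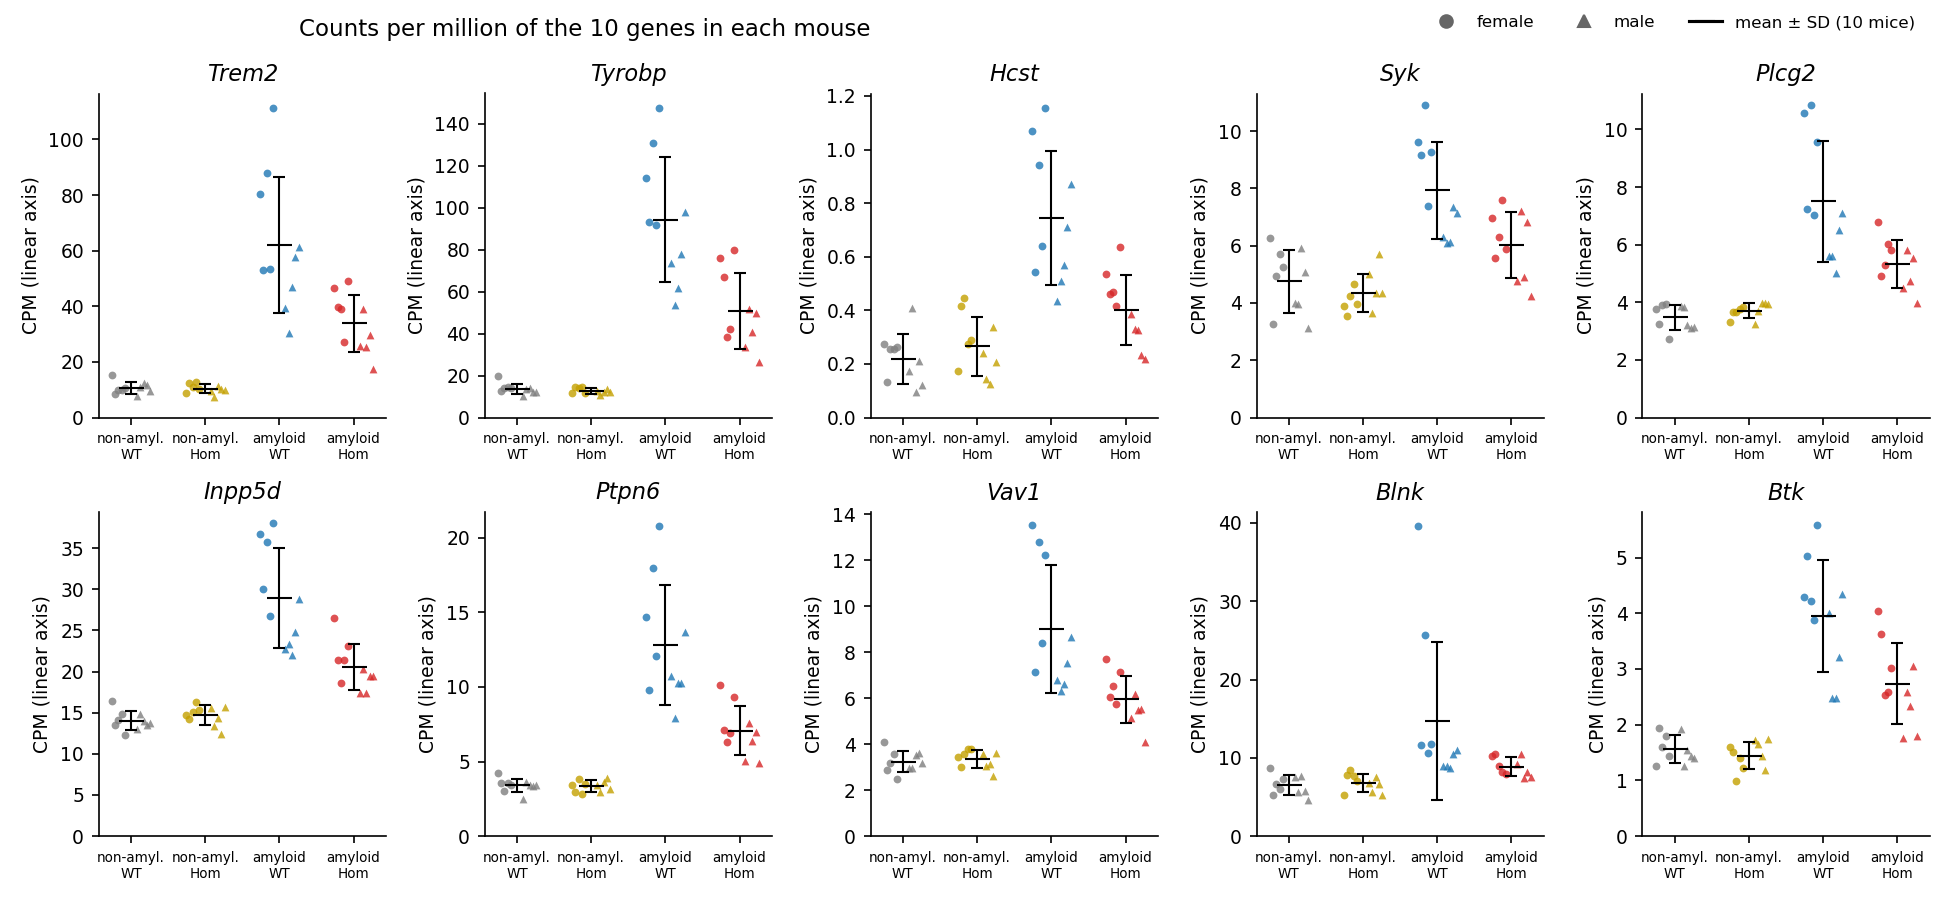
CPM of each of the 10 genes (linear y axis from 0, a scale of its own per gene) in every mouse of the 4 groups, with circles for females, triangles for males and bars for mean ± SD of 10 mice. For Trem2, Tyrobp and Ptpn6 the amyloid WT mice lie highest, the amyloid Hom mice between, and the non-amyloid groups lowest and level with each other.

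Trem2 and Tyrobp had the largest cohort differences of the 10 genes. Trem2 CPM was 7.69, 10.4 and 15.2 (lowest, median and highest of 10) in non-amyloid WT mice and 30.3, 55.5 and 111 in amyloid WT mice. Each amyloid WT mouse was above each non-amyloid WT mouse. The log2 fold change was 2.54 (SE 0.18, adjusted p = 2.37e-14). Tyrobp, the adaptor that holds the ITAM, was at 10.5, 13.8 and 19.6 CPM in non-amyloid WT and at 53.7, 92.6 and 148 in amyloid WT mice, with a log2 fold change of 2.77 (SE 0.17, adjusted p = 3.11e-16). Hcst, the adaptor of the phosphoinositide 3-kinase arm, was scarce, with 6 to 29 counts per library in non-amyloid WT and 36 to 99 in amyloid WT mice. Its level went from 0.219 ± 0.093 to 0.745 ± 0.2501 CPM (SD, n = 10 each), a log2 fold change of 1.75 (SE 0.25, adjusted p = 6.16e-07).

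Among the genes inside the cell the phosphatase gene Ptpn6 had the largest log2 fold change in WT mice, 1.91 (SE 0.14), from 2.46, 3.44 and 4.22 CPM to 7.91, 11.4 and 20.8 CPM (lowest, median and highest). Inpp5d, the lipid phosphatase gene, rose by 1.04 (SE 0.09) on the log2 scale, from 14.02 ± 1.13 to 28.9 ± 6.06 CPM. Vav1, a guanine nucleotide exchange factor for Rac, rose by 1.47 (SE 0.13), and Btk, a Tec family kinase, by 1.34 (SE 0.14). Blnk, an adaptor best known from B cells, rose by 1.19 (SE 0.20), and Plcg2, which makes inositol trisphosphate and diacylglycerol, by 1.11 (SE 0.11). Syk, the kinase that docks on the ITAM, rose least, by 0.74 (SE 0.13, adjusted p = 3.07e-05). Its ranges were 3.11 to 6.25 CPM in non-amyloid WT and 6.11 to 10.9 CPM in amyloid WT mice, so they touched.

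Hom mice showed the cohort difference too, with 8 of 10 genes called higher, where 5.71% of genes were called higher. Log2 fold changes were 1.99 (SE 0.17) for Tyrobp, 1.70 (SE 0.18) for Trem2, 1.07 (SE 0.13) for Ptpn6, 0.92 (SE 0.14) for Btk and 0.82 (SE 0.13) for Vav1. For Plcg2, Inpp5d and Syk they were 0.53 (SE 0.11), 0.48 (SE 0.09) and 0.47 (SE 0.13). Hcst at 0.60 (SE 0.25, adjusted p = 0.131) and Blnk at 0.38 (SE 0.20, adjusted p = 0.237) did not pass. In Hom mice 9 of the 10 microglia markers were called higher too, with a median of 0.65 against 0.71 for the 10 genes. Amyloid Hom and non-amyloid Hom mice did not overlap for 6 genes, namely Trem2, Tyrobp, Inpp5d, Ptpn6, Vav1 and Btk, against 0.875% of genes. The same 10 and 8 calls were made in each of 40 fits that left out 1 library.

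**Figure D2:**
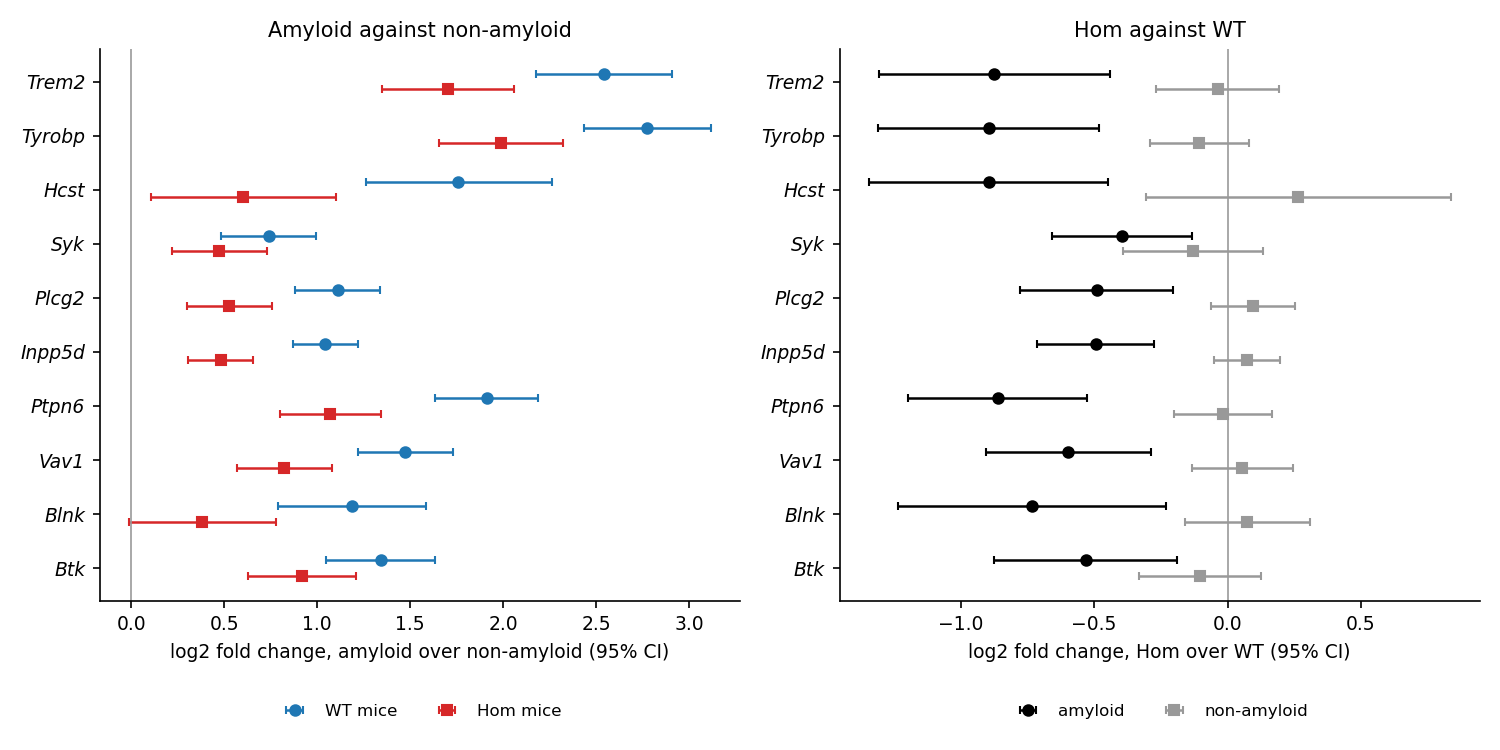
Log2 fold changes with 95% confidence intervals (x axis) of the 10 genes (y axis). Left, amyloid over non-amyloid, with WT mice as blue circles and Hom mice as red squares. Right, Hom over WT, with amyloid mice as black circles and non-amyloid mice as grey squares. All 10 amyloid intervals on the right lie below 0 and all 10 non-amyloid intervals cross it.

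The study examined the H157Y change both without and with amyloid. In amyloid Hom cortex the mean level of each of the 10 genes was below that in amyloid WT cortex, by 1.32 times for Syk to 1.86 times for Tyrobp. All 10 had an unadjusted p under 0.05 in the lower direction, where 5.77% of genes did. Only Ptpn6 was called after adjustment, where 0.0753% of genes were called. Without replicate 19, the library that stood apart, none of the 10 was called (share of all genes not given here). With all 40 libraries in 1 fit 9 of the 10 were called (2.88% of genes), and by DESeq2 7 of the 10 (1.42% of genes). The median log2 fold change was -0.67 over the 10 genes and 0.001 over all genes tested. Microglia markers were lower as well, 10 of 10, with 8 at an unadjusted p under 0.05, none called and a median of -0.54.

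Ptpn6 encodes SHP-1, a tyrosine phosphatase that dampens ITAM signals. Its CPM was 7.91, 11.4 and 20.8 (lowest, median and highest) in amyloid WT and 4.88, 6.92 and 10.1 in amyloid Hom mice. Of the 10 Hom mice, 8 were below every WT mouse, and all 10 were below the WT median. The log2 fold change was -0.86 (SE 0.16, 95% interval -1.20 to -0.53, adjusted p = 0.0402). The call was lost, at adjusted p between 0.0545 and 0.0995, in 13 of 20 fits that left out 1 library, those without WT replicate 5, 12, 26, 32 or 36 or Hom replicate 10, 16, 19, 25, 30, 33, 39 or 40. The log2 fold change was -0.93 to -0.75 over the 20 fits.

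Trem2 itself stood at 62.2 ± 24.4 CPM in amyloid WT and 33.9 ± 10.3 CPM in amyloid Hom mice (SD, n = 10 each). The lowest, median and highest mice were at 30.3, 55.5 and 111 CPM in WT and at 17.3, 34.3 and 49.1 CPM in Hom. All 10 Hom mice were below the WT median, and 5 of them below every WT mouse. The log2 fold change of -0.87 (SE 0.21, unadjusted p = 0.000373, adjusted p = 0.0763) did not pass the threshold. The study, whose own fit left out a Hom female, did report Trem2 and Tyrobp as downregulated in amyloid Hom mice, also by qPCR. Why the calls differ was not tested. Leaving out WT replicate 13, the WT mouse with the lowest Trem2, gave 6 calls among the 10 genes, those of Trem2, Tyrobp, Hcst, Inpp5d, Ptpn6 and Vav1, and calls over all genes went from 0.0753% to 0.960%.

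Tyrobp, the signalling partner of TREM2, had a difference of similar size. It was at 94.2 ± 29.8 CPM in amyloid WT and 50.7 ± 18.1 CPM in amyloid Hom mice. The Hom mice ran from 26.3 through a median of 46.1 to 80.1 CPM, and 7 of them were below every WT mouse. Its log2 fold change was -0.90 (SE 0.20, adjusted p = 0.0599). Hcst, which lies tail to tail with Tyrobp, had a value of -0.89 (SE 0.22, adjusted p = 0.0787), from 0.745 ± 0.2501 to 0.401 ± 0.131 CPM.

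Inpp5d encodes SHIP1, which removes a phosphate from the lipid product of phosphoinositide 3-kinase. It was at 21.98, 27.8 and 38.1 CPM (lowest, median and highest) in amyloid WT and at 17.4, 19.9 and 26.6 CPM in amyloid Hom mice, 8 of which were below every WT mouse. Its log2 fold change of -0.49 (SE 0.11) was smaller than that of Trem2 but had a smaller error, and its adjusted p of 0.0554 was the second lowest of the 10. Vav1, at 9.004 ± 2.78 and 5.95 ± 1.03 CPM, gave -0.60 (SE 0.15, adjusted p = 0.0798). Plcg2, at 7.50 ± 2.098 and 5.34 ± 0.83 CPM, gave -0.49 (SE 0.14, adjusted p = 0.115).

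For the kinases the differences were about as large as for Plcg2. Syk was at 7.93 ± 1.69 CPM in amyloid WT and 6.03 ± 1.14 CPM in amyloid Hom mice, a log2 fold change of -0.40 (SE 0.13, adjusted p = 0.184). Btk was at 3.95 ± 1.002 and 2.74 ± 0.73 CPM, a log2 fold change of -0.53 (SE 0.17, adjusted p = 0.165). Neither was called.

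Blnk was the most uneven member. In amyloid WT mice it was at 8.74, 10.8 and 39.7 CPM (lowest, median and highest), with females at 19.9 ± 12.7 and males at 9.60 ± 1.05 CPM (SD, n = 5 each). Replicate 5 at 39.7 CPM and replicate 12 at 25.7 CPM, both female, were above the other 8, which ran up to 11.8 CPM. Amyloid Hom mice ran from 7.39 to 10.5 CPM with a median of 8.59. Its log2 fold change of -0.73 (SE 0.24, adjusted p = 0.208) became -0.43 (adjusted p = 0.420) without WT replicate 5. The 6 B cell markers other than Ighm summed to 0.713 CPM in replicate 5 and 0.674 CPM in replicate 12, within the 0.271 to 0.857 CPM of all amyloid WT mice. These 6 were near the floor, with none above 0.436 CPM in any library. Ighm, left out of the sum, had a mean of 52.9 CPM in amyloid WT mice. The part of B cells in the Blnk level was not tested.

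Female amyloid mice had higher mean levels than males, so the fit was repeated with sex as a covariate. Then 7 of 10 genes were called lower in amyloid Hom mice, where 1.14% of genes were called lower. These were Ptpn6 and Inpp5d (adjusted p = 0.00371 each), Tyrobp (0.00560), Trem2 (0.00923), Hcst (0.0103), Vav1 (0.0120) and Plcg2 (0.0343), all adjusted p from edgeR's quasi-likelihood test. Btk (0.0566), Syk (0.0880) and Blnk (0.245) did not pass. The log2 fold changes hardly moved, with -0.86 (SE 0.16) for Trem2, -0.89 (SE 0.15) for Tyrobp, -0.85 (SE 0.14) for Ptpn6 and -0.48 (SE 0.08) for Inpp5d. Of the 10 microglia markers 8 were called lower in the same fit. Their median log2 fold change was -0.54, against -0.61 for the 10 genes. Without the library that stood apart, replicate 19, this fit called 6 of the 10 genes (share of all genes not given here). Plcg2 was no longer one of them (adjusted p = 0.0644).

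Within one sex, 5 mice against 5, no gene of the 10 was called (share of all genes called not given here). In females all 10 genes had an unadjusted p under 0.05 in the lower direction, where 5.51% of genes did, and in males 7 did, where 2.87% of genes did. The log2 fold changes of Trem2 were -0.94 (SE 0.22) in females and -0.78 (SE 0.20) in males, and those of Tyrobp -0.93 (SE 0.22) and -0.85 (SE 0.18). For Blnk they were -1.12 (SE 0.34) and -0.16 (SE 0.12). The interaction of genotype and sex had an unadjusted p under 0.05 for Blnk alone (-0.95, SE 0.38, adjusted p = 0.817), where 5.29% of genes did, and the females include WT replicates 5 and 12.

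The summed level of the 10 microglia markers ran from 652 through a median of 1018 to 1455 CPM in amyloid WT mice and from 536 through 696 to 939 CPM in amyloid Hom mice. With the mean log2 level of these markers as a covariate, the log2 fold changes of the 10 genes lay between -0.31 for Hcst and 0.06 for Btk, with -0.09 (SE 0.13) for Trem2, -0.14 (SE 0.08) for Tyrobp and -0.27 (SE 0.10) for Ptpn6. None was called (share of all genes called not given here). Ptpn6 alone had an unadjusted p under 0.05 (0.0145), where 2.23% of genes did. The part of cell number in the genotype difference was not tested. Monocyte and border macrophage markers were low, with 8 genes summing to 13.03 to 22.5 CPM in amyloid WT and 11.95 to 21.1 CPM in amyloid Hom mice. All 8 were lower in amyloid Hom mice, 2 of them at an unadjusted p under 0.05 (Lyve1 at -0.51 and F13a1 at -0.40) and none called. The highest level of any library was 9.50 CPM for Mrc1 and 1.15 CPM for Ccr2. Of 6 astrocyte markers 3 were lower, with Gfap at -0.95 (SE 0.24, adjusted p = 0.0830). Of 5 T and NK cell markers that could be tested 4 were lower, with Klrb1c at -1.23 (SE 0.36, adjusted p = 0.128) from 0.254 to 0.106 CPM. The part of these cells in the members' differences was not tested.

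In non-amyloid mice none of the 10 had an unadjusted p under 0.05, where 4.61% of genes did, and none was called, where 0.0329% of genes were. The log2 fold change was negative for 5 of 10 genes, against 51.0% of all genes, with a median of 0.02. Trem2 was at 10.7 ± 2.13 CPM in WT and 10.4 ± 1.59 CPM in Hom mice (SD, n = 10 each), a log2 fold change of -0.04 with a 95% interval of -0.27 to 0.19. Tyrobp was at 13.8 ± 2.41 and 12.8 ± 1.32 CPM, with an interval of -0.29 to 0.08. For Ptpn6 the interval was -0.20 to 0.17 and for Inpp5d -0.05 to 0.20. Differences of the size found in amyloid mice were outside these 4 intervals. Hcst, with 12 to 33 counts per library in Hom mice, had the widest interval, -0.31 to 0.84.

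The difference between the cohorts in the genotype effect was tested as an interaction over all 40 libraries. All 10 estimates were negative, 9 of them with an unadjusted p under 0.05, where 5.54% of genes were lower at that p. None of the 10 was called, and 0% of genes were. The lowest adjusted p was 0.111, for Inpp5d (-0.56, SE 0.12) and Ptpn6 (-0.84, SE 0.19). Hcst had the largest estimate, -1.16 (SE 0.35, adjusted p = 0.181), Trem2 had -0.84 (SE 0.24, adjusted p = 0.167) and Tyrobp -0.79 (SE 0.23, adjusted p = 0.157). Syk, at -0.26 (SE 0.18), was the gene without an unadjusted p under 0.05. All 10 microglia markers had negative estimates too, 8 of them with an unadjusted p under 0.05 and none called. Their median was -0.53, against -0.72 for the 10 genes. With sex as a covariate Inpp5d (adjusted p = 0.0233) and Ptpn6 (adjusted p = 0.0382) were called, where 0.0565% of genes were. These 2 genes were also called by DESeq2, which called 0.129% of genes. Leaving out amyloid Hom replicate 3 (0.0329% of genes called) or amyloid WT replicate 13 (0.104%) gave 2 calls among the 10 genes, and leaving out WT replicate 22 (0.0188%) gave 1.

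Females held more of all 10 transcripts than males in the amyloid cohort, with genotype in the model. Each had an unadjusted p under 0.05 in the higher direction, where 6.0% of genes did, and none was called, where 0.202% of genes were called higher. The log2 difference of female over male was 0.63 (SE 0.16) for Trem2, 0.62 (SE 0.15) for Tyrobp, 0.61 (SE 0.18) for Hcst and 0.35 (SE 0.08, adjusted p = 0.0563) for Inpp5d. In amyloid WT mice Trem2 was at 77.2 ± 24.7 CPM in females and 47.1 ± 12.8 CPM in males, and in amyloid Hom mice at 40.4 ± 8.49 and 27.5 ± 7.82 CPM (SD, n = 5 each). The groups overlapped in both genotypes. The mean log2 CPM of the 10 microglia markers ran from 6.061 to 6.636 in amyloid WT females and from 5.47 to 6.165 in amyloid WT males. In amyloid Hom mice it ran from 5.535 to 5.991 in females and from 5.163 to 5.564 in males. The part of microglial RNA in the sex difference was not tested. In the non-amyloid cohort Tyrobp alone had an unadjusted p under 0.05 (0.0433, log2 difference 0.18, SE 0.08), where 6.59% of genes did. By DESeq2, 5 of the 10 were called higher in amyloid females (Trem2, Tyrobp, Plcg2, Inpp5d and Vav1), where 1.2% of genes were called in either direction.

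**Figure D3:**
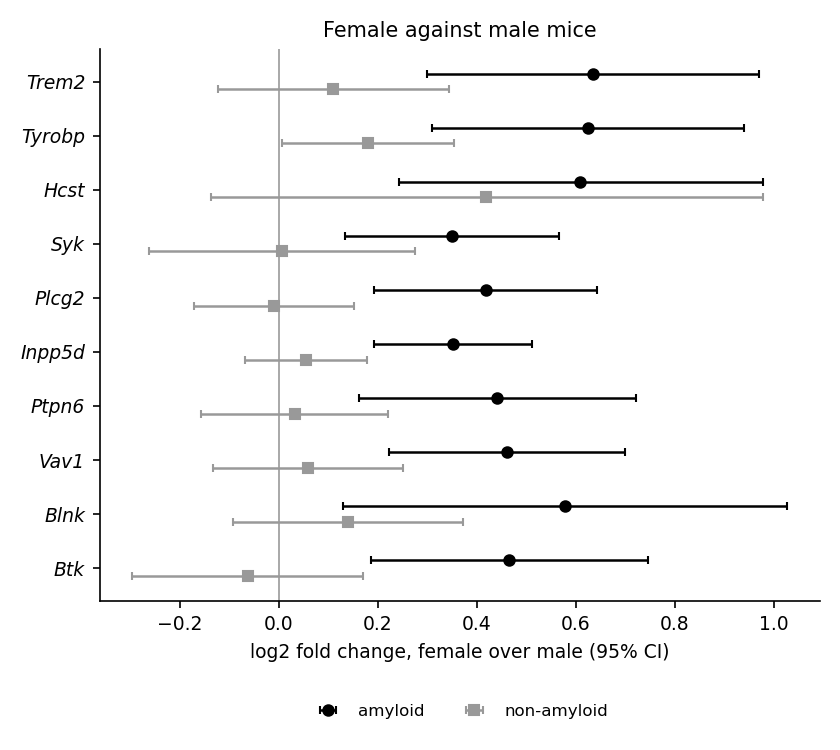
Log2 fold change of female over male mice with 95% confidence intervals (x axis) for the 10 genes (y axis), with amyloid mice as black circles and non-amyloid mice as grey squares, 10 females and 10 males in each cohort. All 10 amyloid intervals lie above 0, and in non-amyloid mice only that of Tyrobp does.

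Ratios within a library do not depend on its depth or scaling, but they can change with how much microglial RNA it holds. The ratio of Trem2 to Tyrobp CPM was 0.776 ± 0.085 in non-amyloid WT, 0.812 ± 0.074 in non-amyloid Hom, 0.651 ± 0.087 in amyloid WT and 0.687 ± 0.128 in amyloid Hom mice (SD, n = 10 each). Hom and WT mice differed by 0.07 on the log2 scale in both cohorts, with two-sided permutation p of 0.491 in amyloid and 0.296 in non-amyloid mice (100000 resamples). Without replicate 19, whose log2 ratio of 0.014 was the highest of the amyloid Hom mice, the amyloid Hom ratio was 0.651 ± 0.063 (SD, n = 9) and the log2 difference 0.007 (permutation p = 0.928). Both differences were smaller than the SD between mice of a group. Hcst to Tyrobp gave a log2 difference of 0.02 in amyloid mice (permutation p = 0.906) and 0.38 in non-amyloid mice (permutation p = 0.141). The amyloid value depended on how low counts were treated. It was 0.59 (permutation test, adjusted p = 0.0106) with 1 CPM added to both genes, more than the whole Hcst level of most mice, and it was negative in 6 of 40 repeats that left out 1 library, -0.05 without replicate 19.

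Set against the mean of the 10 microglia markers, Tyrobp was lower in amyloid Hom mice. Its log2 ratio was 0.005 ± 0.26 in Hom and 0.41 ± 0.16 in WT mice, a difference of -0.40 (permutation p = 0.00038, adjusted p = 0.00304 over 8 ratio comparisons). Hom mice ran from -0.44 to 0.38 and WT mice from 0.19 to 0.67, so the groups overlapped. Trem2 to the same markers differed by -0.33 (permutation p = 0.0141, adjusted p = 0.0563). Without replicate 19 the differences were -0.37 for Tyrobp (permutation test, adjusted p = 0.00520) and -0.37 for Trem2 (permutation test, adjusted p = 0.0352), so the latter passed, as it did in 6 of 40 repeats that left out 1 library. In non-amyloid mice the differences were -0.09 for Tyrobp (permutation p = 0.254) and -0.03 for Trem2 (permutation p = 0.805). These ratios do not hold the marker level fixed. With that level as a covariate, the amyloid log2 fold changes were -0.14 for Tyrobp and -0.09 for Trem2, and neither was called. In both genotypes the ranges of both ratios in amyloid mice lay above those in non-amyloid mice with no overlap, and Tyrobp was at 0.472 ± 0.060 of the marker level in non-amyloid WT and 1.33 ± 0.15 in amyloid WT mice.

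**Figure D4:**
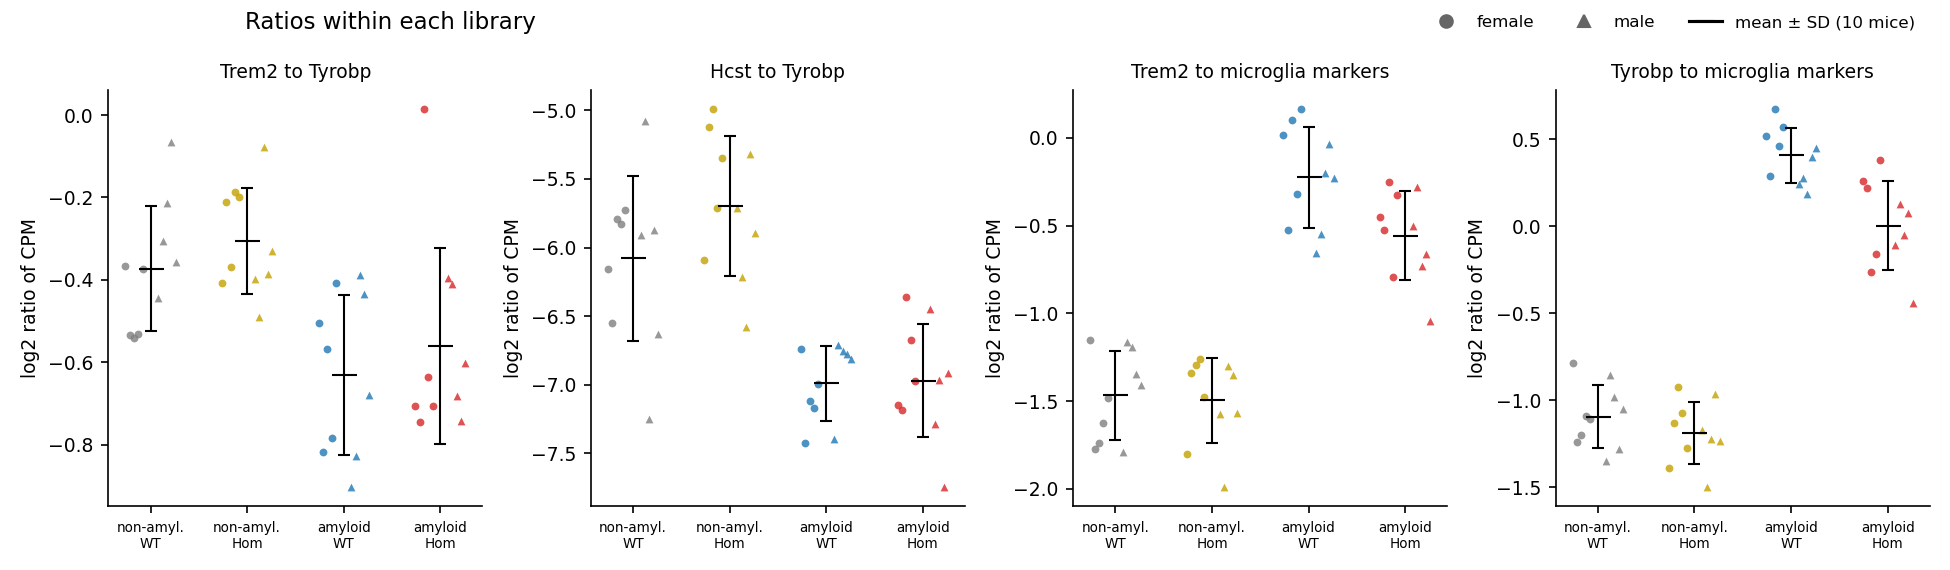
Log2 ratio of CPM within each library (y axis) for Trem2 to Tyrobp, Hcst to Tyrobp, and Trem2 and Tyrobp to the geometric mean of 10 microglia markers, in the 4 groups, with circles for females, triangles for males and bars for mean ± SD of 10 mice. Amyloid Hom and WT mice overlap for the first pair and are set apart most for Tyrobp to microglia markers, at 0.005 against 0.41.

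Trem2 and Tyrobp also moved together from mouse to mouse. Over the 20 amyloid mice Pearson's r of their log2 CPM was 0.948, rank 13 of 21252 genes for Trem2, and over the 20 non-amyloid mice 0.821, rank 578. Ranked for Tyrobp, Trem2 was at 29 in amyloid and 26 in non-amyloid mice. These points share the contrast between groups. With group and sex means removed r was 0.837 in amyloid mice, rank 32 for Trem2, and 0.8925 in non-amyloid mice. The 5 genes most like Trem2 in the amyloid mice were Irf8 (0.973), Cd68 (0.970), Itgb2 (0.967), Ctsz (0.967) and Hcar2 (0.956). The 5 most like Tyrobp were Ctsz (0.983), Ly86 (0.976), Cd52 (0.976), Gusb (0.976) and Ctsd (0.974). Irf8 is a transcription factor of microglia, and Cd68, Ctsz, Ctsd and Gusb encode lysosomal proteins.

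Among the other members, Vav1 (r 0.948), Ptpn6 (0.942) and Hcst (0.920) were closest to Trem2 in the amyloid mice, and Blnk (0.678) was farthest. In the non-amyloid mice the same correlations ran from -0.54 for Btk to 0.56 for Blnk, apart from Tyrobp. Plcg2 was at 0.01 there. With group and sex means removed, r with Trem2 in amyloid mice was 0.850 for Ptpn6, 0.846 for Vav1 and 0.780 for Hcst. It was 0.699 for Plcg2, 0.6215 for Inpp5d, 0.543 for Btk, 0.519 for Syk and 0.370 for Blnk. The non-amyloid values in the same order were 0.484, 0.363, 0.304, 0.063, 0.416, -0.545, 0.6125 and 0.547. On this scale Syk and Blnk were higher in non-amyloid mice and the others lower. All are descriptions over 20 libraries that share depth and composition.

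**Figure D5:**
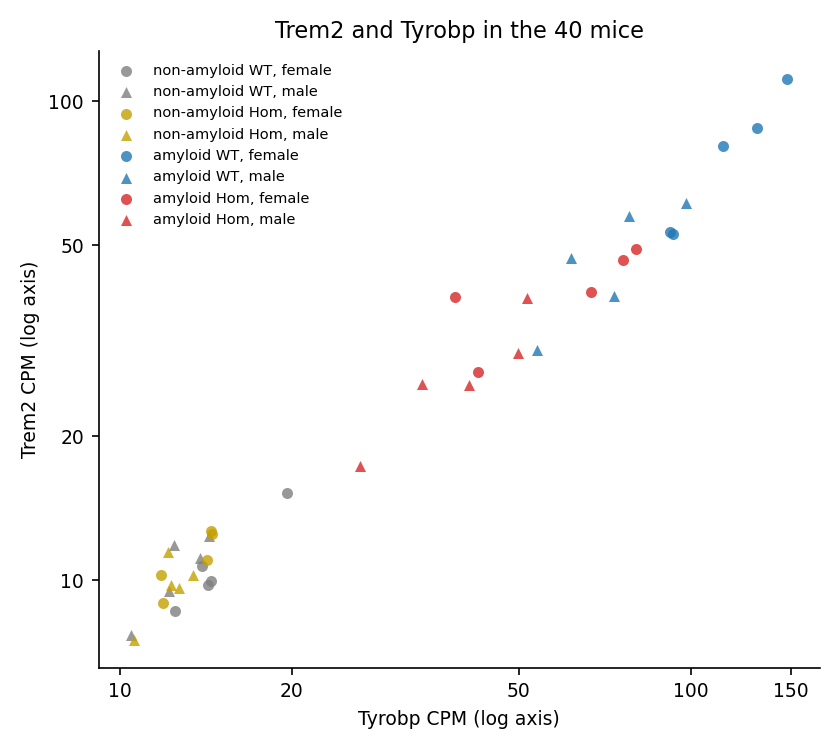
Trem2 CPM (y axis, log scale) against Tyrobp CPM (x axis, log scale) in the 40 mice, with a colour per group, circles for females and triangles for males. Points follow one band from the non-amyloid mice at the lower left to the amyloid WT females at the upper right, and 1 amyloid Hom female, replicate 19, lies above it.

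The wider ITAM pathway was followed with 54 further genes, all tested. In amyloid Hom against WT mice 18 were lower and none higher at an unadjusted p under 0.05, none was called, and the median log2 fold change was -0.09. Over all genes 5.77% were lower at that p. With sex as a covariate 12 of 54 were called lower, against 1.14% of all genes. The lowest p values then belonged to Lcp2, the adaptor SLP-76 (-0.50, SE 0.09, adjusted p = 0.00874), to Pik3cg, a phosphoinositide 3-kinase subunit of blood cells (-0.45, SE 0.09, adjusted p = 0.0112), and to Ptprc, the phosphatase CD45 (-0.61, SE 0.12, adjusted p = 0.0120). In amyloid WT against non-amyloid WT mice 21 of the 54 were called higher and none lower, where 6.62% of genes were called higher. In non-amyloid mice 4 were higher and none lower at an unadjusted p under 0.05 in Hom, where 2.32% of genes were higher at that p, with none called. The lowest p there was for Vav2 (0.27, SE 0.07, adjusted p = 0.699).

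Other receptors that use Tyrobp were mostly scarce, and 6 of 11 passed the filter. In amyloid Hom mice, 3 of the 6 were lower at an unadjusted p under 0.05, against 5.77% of genes, and none was called. Cd300lb had -1.43 (SE 0.37, adjusted p = 0.0846) and was the 1 gene called with sex as a covariate (-1.32, SE 0.32, adjusted p = 0.0375). Of 9 genes for the proteases that shed and cut TREM2, all tested, none had an unadjusted p under 0.05 in amyloid mice. In non-amyloid mice the lowest p was for Aph1a, a gamma-secretase subunit (0.12, SE 0.04, adjusted p = 0.965).

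Genes of 3 TREM2 ligands were all lower in amyloid Hom mice at an unadjusted p under 0.05, against 5.77% of genes, and none was called. Clu, which encodes clusterin, had -0.26 (SE 0.09, adjusted p = 0.207), Lgals3, galectin-3, -0.82 (SE 0.30, adjusted p = 0.286) and Apoe, apolipoprotein E, -0.31 (SE 0.14, adjusted p = 0.471). In non-amyloid mice the log2 fold changes were -0.05 for Clu, 0.13 for Lgals3 and 0.001 for Apoe. Lgals3 and Apoe complete the list of 3 and were named after their values were seen.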

How the data were processed

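RNA from the cortex of 40 mice, 1 library each, had been sequenced as poly-A selected libraries. The authors deposited whole-number gene counts, 1 column per mouse, with no normalization. The submitters' processing notes name STAR 2.5.2b, featureCounts 1.5.1 and edgeR on mm10, while the study's methods name a TopHat-based workflow with featureCounts, so which aligner made the table is not settled. The strand setting is not given in the sources used here. Library totals of 41646271 to 105903846 counts set the counting error, which matters mainly for Hcst. Samples were grouped by the labels' genotype and cohort.

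A gene was kept if 4 or more libraries each had 10 or more of its counts, which left 21253 of 43346. Counts were scaled by TMM and tested with edgeR 4.0.16 quasi-likelihood fits in R 4.3.3, as p-values with Benjamini-Hochberg adjustment over all genes tested. Genotype and sex were compared within a cohort (20 libraries), and cohorts and the interaction over all 40. A gene was called at adjusted p under 0.05 and absolute log2 fold change over 0.25, without covariates, the thresholds of the study's methods. CPM used TMM-scaled library sizes, and log2 CPM a prior count of 2. Ratios were compared by two-sided permutation tests with 100000 resamples (SciPy 1.17.1). The steps were tested on simulated data. Alternatives were DESeq2 1.42.0, limma 3.58.1 voom, other scalings and filters, covariates, single sexes and leaving out each library.

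All 10 members were named in every comparison. From each pathway list the text names up to 3 called genes with the lowest p, or else the gene with the lowest p, and for Trem2 and Tyrobp the 5 genes with the highest correlation. Of the genes this rule selects, 2 are not reported here. Members and lists were chosen with earlier results of these data known. The library that the study left out is not named in the sources used here and was not removed. Gene coordinates and summed exon lengths are from the deposited count table. Strands, transcript lengths, exon overlaps and the edited codon are from GENCODE vM21 on mm10, and promoter sequences from RefSeq on GRCm38.p6. The 2 gene lengths thus have different sources, and the summed exons of Tyrobp (564 bases) are shorter than its longest coding transcript (597 bases).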

Additional observations from a re-analysis of the deposited data

Results flagged for a closer look

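Each group's highest and lowest mouse was compared with the gap to its nearest neighbour, relative to the range of the group (Dixon's 95% critical value for 10 mice). Of 56 groups of values, 2 held a mouse past that value, and chance alone gives about 5%. Tyrobp in non-amyloid WT replicate 1 was at 19.6 CPM, the highest of its group. The log2 ratio of Trem2 to Tyrobp in amyloid Hom replicate 19 was 0.014, the highest of its group, in the library that also had the high share of antisense counts. No cause was tested for either.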

How the results depend on the processing

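Among the 10 genes, the number called in amyloid Hom against WT mice was 1 as reported. It was 9 with all 40 libraries in 1 fit, 7 with DESeq2, 7 with sex as a covariate, 6 with sex and without replicate 19 (chosen after seeing the data) and 3 with filterByExpr. It was 0 with voom, without a filter, with the microglia marker level as a covariate, in females only and in males only, and 0 to 6 when 1 library was left out. Calls went to 6 without WT replicate 13, to 3 without WT replicate 22 or Hom replicate 3, and to 2 without WT replicate 9 or Hom replicate 34. Calls over all genes changed as well, from 0.0753% as reported to 1.42% with DESeq2 and 2.88% with all 40 libraries in 1 fit. Shares are not given here for filterByExpr, library size alone, sex without replicate 19 and most fits without 1 library. Those counts cannot be set against all genes. The interaction of genotype and cohort gave 2 calls with DESeq2 and 2 with sex, and 0 to 2 without 1 library. Amyloid females against males gave 5 calls with DESeq2 and 1 with library size alone. Of 8 ratio comparisons 1 passed as reported, 3 with 1 CPM added, among them Hcst to Tyrobp in amyloid mice (0.59), and 1 to 2 without 1 library. The cohort counts of 10 in WT and 8 in Hom mice, and the count of 0 in non-amyloid Hom against WT mice, were the same under every alternative run. Changes of sign were Btk in amyloid mice with the marker covariate (0.0598) and, in non-amyloid mice, Trem2 with voom (0.00999) and in females (0.0360), Ptpn6 with voom (0.0120) and in males (0.0524), and Syk (0.0567), Vav1 (-0.0281) and Btk (0.0296) in males. Without 1 library, non-amyloid values ran from -0.0841 to 0.0325 for Trem2, from -0.0634 to 0.0216 for Ptpn6 and from -0.0633 to 0.0277 for Trem2 to microglia markers, and Hcst to Tyrobp in amyloid mice from -0.0489 to 0.105. The cause was not tested. Depth limits Hcst most, with 6 to 99 counts per library. No paired analysis was possible because each mouse has a replicate number of its own.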
